A study of Mus musculus with 51 samples.

Results

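The 9 genes described here encode the enzymes and regulators by which liver cells make, release, take up, store and burn glucose: Pck1, G6pc, Fbp1, Pcx, Ppargc1a, Pklr, Slc2a2, Gys2 and Pygl. They were chosen by name, for their place in hepatic glucose metabolism and because FoxA2 is known for the fasting response of several of them; the rule uses no measured value, but earlier results of these data were known when it was made. All 9 were found among the 33773 gene symbols of the deposited matrix of RPKM values (reads per kilobase of transcript scaled to the mapped reads of the library). The study targeted FoxA transcription factors in mouse hepatocytes, and HNF4a in mouse liver, and sequenced RNA from 21 libraries in 6 groups.

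The lox group (3 libraries) carried floxed FoxA1 and FoxA2 without deletion. The Cre alfp group (4 libraries) was deleted for FoxA1 and FoxA2 and kept FoxA3, and the labels do not say when its Cre acted. The triple null group (4 libraries) came from FoxA1L/L FoxA2L/L FoxA3-/- mice that received, at 8 weeks of age, AAV8 with Cre under the hepatocyte-specific Tbg promoter. Its control, labelled FoxA3 null (4 libraries), carried the same alleles and received a GFP virus, so both groups lacked FoxA3 throughout life. These 15 libraries were from hepatocytes. The HNF4a control (2 libraries) and HNF4a null (4 libraries) groups were from liver, the second labelled as depleted of HNF4a in adult livers per the series' design. The feeding state of the mice is not stated in the labels, nor is whether the libraries of a group came from separate animals, so p-values measure the spread between these samples.

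In the fasted state the liver turns lactate, amino acids and glycerol into glucose through a short set of enzymes that bypass the irreversible steps of glycolysis, and it also breaks down its glycogen. Glucagon, through cAMP and the coactivator encoded by Ppargc1a, and glucocorticoids raise the genes of this route, while insulin lowers them. In the fed state the same cells take glucose up, store it as glycogen and burn it through glycolysis. FoxA proteins bind beside the hormone-responsive factors at several of these genes.

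The targeted genes were read first. Foxa2 RNA was 11.1 to 20.6 RPKM in FoxA3 null and 0.243 to 0.470 RPKM in triple null, and 6.84 to 19.2 RPKM in lox against 0.991 to 1.26 RPKM in Cre alfp. Foxa1 was 6.14 to 10.1 RPKM in FoxA3 null and 3.04 to 3.63 RPKM in triple null, and 4.71 to 8.21 RPKM in lox against 1.14 to 1.34 RPKM in Cre alfp. Foxa1 RNA in triple null was thus at 38.6% of FoxA3 null and 2.65-fold that of Cre alfp. Foxa2 RNA in triple null was at 33.5% of Cre alfp, so the deletions were unequal in opposite directions for these RNAs. Foxa3 stayed at or below 0.0114 RPKM in FoxA3 null and triple null, and lay between 19.0 and 34.5 RPKM in lox and Cre alfp. Hnf4a RNA went against its label: the 2 controls had 118 to 126 RPKM, but the 4 libraries labelled HNF4a null had 487 to 545 RPKM, and those 4 are called the null-labelled libraries or "the libraries labelled HNF4a null" throughout. Exchanged labels and RNA kept by an altered gene cannot be told apart from these values, and an exchange would turn every direction given for liver. Sequencing depth is unknown in absolute terms. Relative depth, taken from the steps between low RPKM values, was 2.01 to 4.07 in the hepatocyte libraries and 1.00 to 1.10 in the liver libraries. It was 2.05 to 2.42 in FoxA3 null, 2.01 to 2.39 in triple null, 2.24 to 3.74 in lox and 2.49 to 4.07 in Cre alfp. The estimate varied with the reference library for FoxA3 null replicate 3 (2.045 to 4.093) and Cre alfp replicate 3 (2.031 to 4.068).

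Of the 9 genes, Fbp1 and G6pc fell when FoxA1 and FoxA2 were targeted in hepatocytes that already lacked FoxA3, and no member passed the test when they were targeted in hepatocytes that kept FoxA3. Fbp1 fell to 24.6% and G6pc to 36.0% of the mean RPKM of FoxA3 null. The Fbp1 call held in all 18 alternatives run, but that of G6pc was lost in 8 of them. In Cre alfp, G6pc was at 64.2% of lox, and its difference between the 2 deletions did not pass (limma adjusted p = 0.545). Pck1, the rate-limiting enzyme of the same route and the most abundant member, was at 102% of its FoxA3 null mean. In the libraries labelled HNF4a null a partly different set fell: G6pc, Pklr, Pcx and Gys2, while Fbp1 was at 97.3% of its control. The authors' deposited table puts Fbp1 somewhat lower there, at -0.46 on the log2 scale. A gene was called when limma, fitted over all genes that passed a filter on low values, gave a Benjamini-Hochberg adjusted p under 0.05 and a difference of at least 1 on the log2(RPKM + 1) scale. All 9 members passed the filter in both fits. For triple null against FoxA3 null, 2 of the 9 were called, both lower, beside 3.95% of 11500 genes called lower and 8.11% called in either direction. In bulk RNA, fewer cells of a type and less RNA per cell cannot be told apart.

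**Figure D1:**
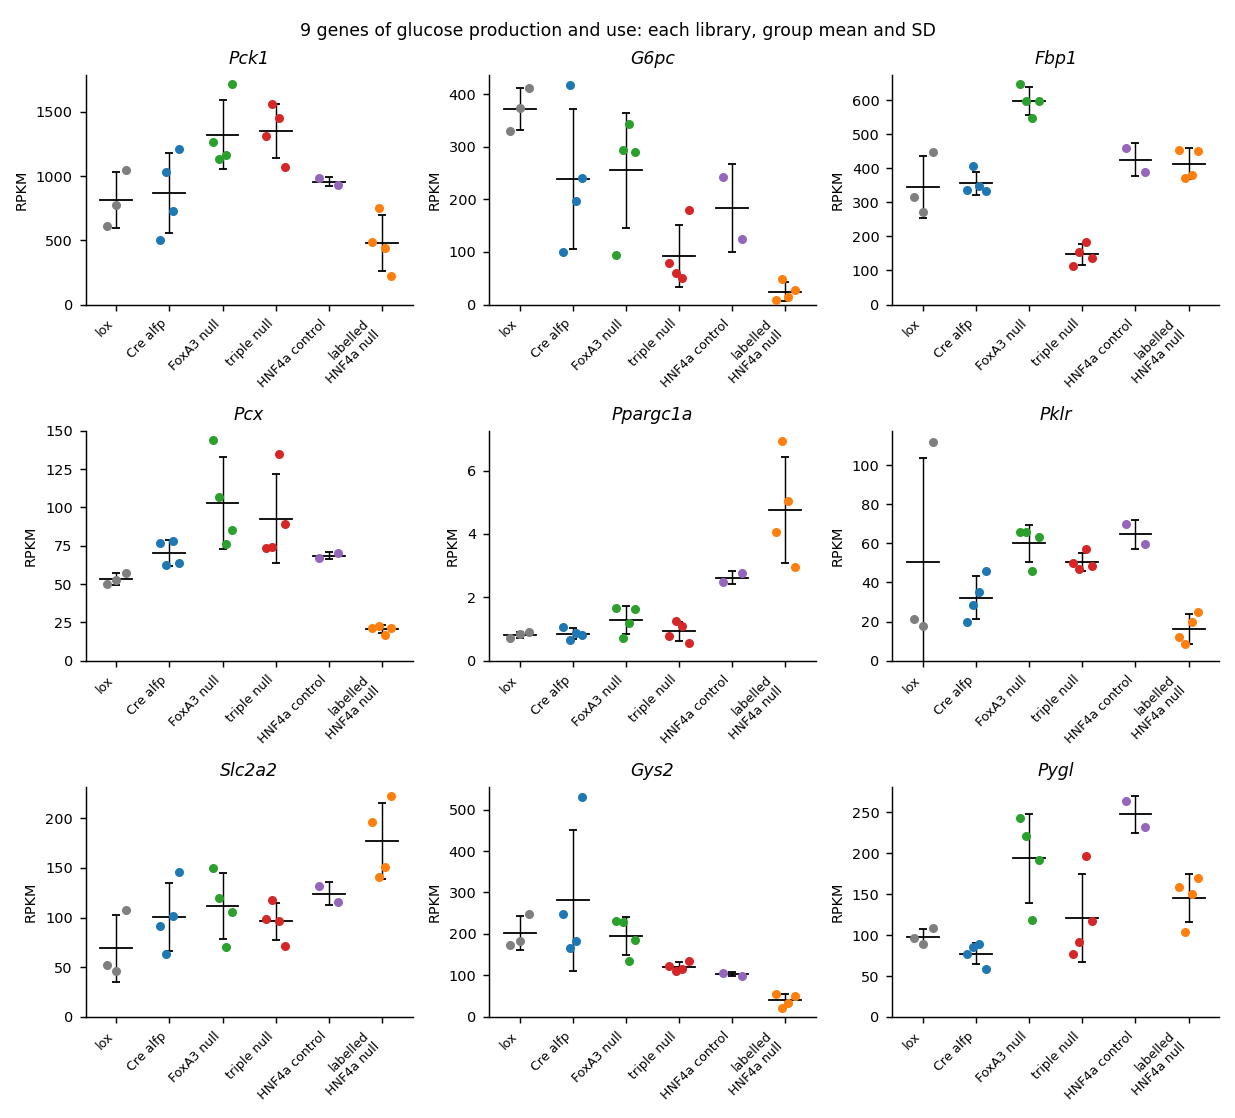
RPKM (vertical axes, linear, from 0) of each of the 9 genes in the 21 libraries of 6 groups; points are libraries, the horizontal bar is the group mean and the whisker its SD, and the lower whisker of Pklr in lox would pass below 0 and ends at the axis. Fbp1 in triple null (113 to 183 RPKM) lies below every other group, and Pck1 is as high in triple null as in FoxA3 null.

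Pck1 encodes cytosolic phosphoenolpyruvate carboxykinase, which makes phosphoenolpyruvate from oxaloacetate. Its RPKM in the 3 lox libraries was 612, 775 and 1046, and in the 4 Cre alfp libraries 501, 1029, 729 and 1208. The FoxA3 null libraries had 1268, 1135, 1166 and 1715 RPKM, and the triple null libraries 1310, 1564, 1448 and 1072 RPKM. In liver it was 982 and 932 RPKM in the 2 controls, against 489.8, 752, 439 and 220.5 RPKM in those labelled HNF4a null. Triple null and FoxA3 null covered overlapping ranges, lox lay below both, Cre alfp reached into them, and the libraries labelled HNF4a null all lay below their controls. Triple null minus FoxA3 null came to 0.04 ± 0.25 (SE) on the log2 scale, with a limma adjusted p of 0.935 and an interval of 2 SE from -0.47 to 0.54. Pck1 had the highest RPKM of the 9 members in 20 of the 21 libraries; the exception was a library labelled HNF4a null, where Fbp1 was higher. Among the 5 neighbouring pairs in the order of its group means, only FoxA3 null (1321 RPKM) and HNF4a control (957 RPKM) did not overlap. That pair sets hepatocytes against liver, so genotype and material cannot be told apart in it.

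G6pc encodes the catalytic subunit of glucose-6-phosphatase, which frees glucose for export in the last step of both gluconeogenesis and glycogen breakdown. The lox libraries had 330.5, 374 and 412 RPKM, and the Cre alfp libraries 101, 417, 197 and 240.5 RPKM. FoxA3 null had 94.9, 295, 343 and 289 RPKM, and triple null 78.2, 59.1, 51.3 and 179 RPKM. Of the triple null libraries 3 lay below every FoxA3 null library, and replicate 4 lay between FoxA3 null replicate 1 and the other 3. Their log2 difference of -1.50 ± 0.48 had a limma adjusted p of 0.0291. This call is fragile: adjusted p was between 0.0578 and 0.079 without any 1 of FoxA3 null replicates 2, 3 and 4 or triple null replicates 1, 2 and 3, and as low as 0.00631 without 1 of the other 2 libraries. With no filter on low values the adjusted p was 0.0802. The authors' deposited table gives G6pc a log2 fold change of -1.54 with an adjusted p of 0.018.

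Fbp1 encodes fructose-1,6-bisphosphatase, which removes a phosphate from fructose 1,6-bisphosphate on the way to glucose. Libraries gave 649, 597, 549 and 598 RPKM in FoxA3 null and 113, 155, 183 and 137 RPKM in triple null. The lox libraries had 317, 272 and 448 RPKM, and the Cre alfp libraries 335, 407, 349 and 333 RPKM. Every triple null library lay below every other hepatocyte library, and every FoxA3 null library lay above all the others. Of 11500 genes, 11.8% were lower without overlap in triple null against FoxA3 null, and 16.7% against lox. In FoxA3 null against lox, 25.7% were higher without overlap. No share was taken for a lack of overlap with all hepatocyte groups at once. The mean fell 4.07-fold, from 598 ± 40.8 RPKM (SD, n = 4) to 147 ± 29.7 RPKM (SD, n = 4), a log2 difference of -2.04 ± 0.16 with a limma adjusted p of 4.89e-07. Of the 9 members, Fbp1 alone kept its call in this comparison under all 18 alternatives run, with adjusted p between 8.23e-08 and 0.00104. The authors' deposited table gives -2.33 with an adjusted p of 1.24e-29. In liver, Fbp1 was 461 and 391 RPKM in the controls and 454, 370.5, 382 and 452 RPKM in those labelled HNF4a null, and the log2 difference was -0.04 ± 0.14 (limma adjusted p = 0.812). Relative to the median of all genes it was -0.38. The authors' deposited table puts Fbp1 lower in liver, at -0.46 with an adjusted p of 0.00141.

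Pcx encodes pyruvate carboxylase, which feeds pyruvate into the route as oxaloacetate. In lox it was 50.2, 52.4 and 57.4 RPKM, and in Cre alfp 76.9, 62.3, 78.4 and 63.9 RPKM. FoxA3 null had 144, 107, 76.2 and 85.4 RPKM, and triple null 73.5, 74.0, 135 and 88.9 RPKM. Every Cre alfp library was above every lox library (as for 11.2% of 11500 genes), yet the log2 difference of 0.39 ± 0.22 did not pass (limma adjusted p = 0.402). Triple null and FoxA3 null overlapped, with a difference of -0.15 ± 0.21 (limma adjusted p = 0.613). In liver the controls had 67.2 and 70.1 RPKM and the null-labelled libraries 21.3, 22.8, 16.6 and 21.2 RPKM, the lowest values of this gene in any group.

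The 250 bases before the start of Fbp1 and G6pc, the members that fell in triple null, are shown beside those of Pck1, which did not pass the test. The sequences are RefSeq promoters of build GRCm38.p6, 5′ to 3′ on the gene's own strand, and lie at chr13:62888283-62888532 (minus strand), chr11:101367466-101367715 (plus strand) and chr2:173152823-173153072 (plus strand). This build differs from the mm9 of the study's files. Capitals in Pck1 mark CGTCA, which is TGACG read on the other strand, 90 to 86 bases before the start; TGACG is the first part of the cAMP response element TGACGTCA.
Fbp1: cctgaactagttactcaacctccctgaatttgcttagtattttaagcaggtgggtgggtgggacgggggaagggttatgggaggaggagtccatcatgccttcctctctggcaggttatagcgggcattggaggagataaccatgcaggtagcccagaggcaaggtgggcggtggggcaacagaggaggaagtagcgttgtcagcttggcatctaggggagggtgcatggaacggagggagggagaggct
G6pc: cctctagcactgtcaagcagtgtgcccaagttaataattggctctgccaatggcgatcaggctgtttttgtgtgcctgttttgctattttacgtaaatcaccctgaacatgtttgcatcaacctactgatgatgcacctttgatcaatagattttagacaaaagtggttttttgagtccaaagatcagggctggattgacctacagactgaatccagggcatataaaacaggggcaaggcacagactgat
Pck1: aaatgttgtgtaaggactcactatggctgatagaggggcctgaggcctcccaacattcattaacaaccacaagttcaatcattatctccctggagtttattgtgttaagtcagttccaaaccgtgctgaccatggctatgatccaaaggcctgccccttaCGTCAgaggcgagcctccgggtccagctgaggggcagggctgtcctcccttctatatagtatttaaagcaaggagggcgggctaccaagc
Promoters were found for 8 of the 9 members, with 10 start sites. The FoxA core letters TGTTTAC, searched on both strands, were in none of the 10 windows and in 3.17% of 32851 mouse promoter windows of this length. The HNF4 letters CAAAGTCCA, held by 0.384% of all windows, and the full TGACGTCA, held by 1.55%, were likewise in none of the members' windows. TGACG alone, held by 17.8% of all windows, was also in Ppargc1a (49 to 45 bases before the start) and Pygl (44 to 40 bases), on the other strand in both. These are matches of exact letters in a short window, and no binding data were set beside them here. For TGTTTAC, CAAAGTCCA and TGACGTCA, with shares this small, no match in 10 windows was likely for any genes. Nothing is read from it, and variants of these letters were not searched.

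Ppargc1a encodes PGC-1alpha, the coactivator that raises gluconeogenic genes in fasting. It was by far the least abundant member in every group. In lox it was 0.709, 0.841 and 0.894 RPKM, Cre alfp 1.08, 0.644, 0.883 and 0.814 RPKM, FoxA3 null 1.66, 0.709, 1.18 and 1.63 RPKM, and triple null 0.790, 1.25, 1.08 and 0.574 RPKM. All 4 hepatocyte groups overlapped, and none of the hepatocyte comparisons called it. Against lox (mean 0.814 RPKM) or Cre alfp (mean 0.855 RPKM), even its complete loss would lie under the fold threshold. A fall of Ppargc1a therefore could not be called there. The liver libraries were higher, with 2.47 and 2.78 RPKM in the controls and 4.07, 6.94, 5.05 and 2.97 RPKM in the null-labelled group. At levels near 1 RPKM the added 1 in the log2 scale compresses differences, so the ratio of means is more telling: triple null was at 71.4% of FoxA3 null.

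Pklr encodes the liver form of pyruvate kinase, the last step of glycolysis, which carbohydrate feeding raises. The lox libraries had 21.1, 17.8 and 112 RPKM, and the Cre alfp libraries 20.0, 28.4, 35.0 and 45.8 RPKM. FoxA3 null had 65.6, 65.6, 45.8 and 63.2 RPKM, and triple null 49.7, 46.7, 56.9 and 48.5 RPKM. Replicate 3 stood far above the other lox libraries, so the lox mean of 50.3 ± 53.4 RPKM (SD, n = 3) says little. Triple null and FoxA3 null overlapped, at a log2 difference of -0.24 ± 0.43 (limma adjusted p = 0.716). The authors' deposited table lists a fold change of -0.58 with an adjusted p of 0.00354. In liver, the controls had 69.8 and 59.4 RPKM and the null-labelled libraries 12.0, 8.39, 19.9 and 25.1 RPKM, with no overlap.

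Slc2a2 encodes GLUT2, the transporter through which hepatocytes take up and release glucose. It was 52.5, 46.7 and 108 RPKM in lox, 92.0, 63.2, 101 and 146 RPKM in Cre alfp, 149.7, 120.2, 70.8 and 106 RPKM in FoxA3 null, and 98.9, 117, 96.3 and 71.9 RPKM in triple null. All 4 hepatocyte groups overlapped one another. Triple null minus FoxA3 null was -0.18 ± 0.30 on the log2 scale (limma adjusted p = 0.682). In liver the controls had 132 and 116 RPKM, below all 4 libraries labelled HNF4a null, which had 196, 141, 150.5 and 222 RPKM; the log2 difference of 0.49 ± 0.20 did not pass (limma adjusted p = 0.0769).

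Gys2 encodes liver glycogen synthase. Values in lox were 174, 182.5 and 249 RPKM, and in Cre alfp 248, 165, 182 and 529 RPKM. FoxA3 null had 230.5, 229.6, 134 and 185 RPKM, and triple null 122, 110.0, 115 and 135 RPKM. Of the triple null libraries 3 lay below every FoxA3 null library, but the log2 difference of -0.66 ± 0.30 did not pass (limma adjusted p = 0.108). For this gene the authors' deposited table differs in size and in its call, with a log2 fold change of -1.49 and an adjusted p of 2.74e-07. The liver controls had 107 and 99.6 RPKM and the null-labelled libraries 54.8, 22.6, 33.7 and 51.2 RPKM, without overlap.

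Pygl encodes liver glycogen phosphorylase, which starts glycogen breakdown. Values in lox were 96.9, 88.8 and 108 RPKM, and in Cre alfp 76.6, 84.9, 88.8 and 59.1 RPKM. FoxA3 null had 244, 221, 119 and 192 RPKM, and triple null 76.8, 91.0, 197 and 117 RPKM. Every FoxA3 null library lay above every library of the 2 groups with FoxA3 present. Against lox alone, 25.7% of 11500 genes were higher without overlap, and no share was taken against both groups. Triple null spread from below the lox libraries, within the Cre alfp range, up into the FoxA3 null range. Triple null minus FoxA3 null was -0.73 ± 0.27 on the log2 scale, which missed both the fold and the p threshold (limma adjusted p = 0.056, and 0.00607 to 0.157 when each library was left out). The authors' deposited table gives Pygl -0.48 with an adjusted p of 0.0245. The liver controls had 264 and 232 RPKM, and the null-labelled ones 159, 103.5, 149.8 and 170.2 RPKM.

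In the order of each member's group means, most neighbouring groups had overlapping libraries. Among the exceptions was Fbp1 in lox (346 RPKM) above triple null (147 RPKM), a side on which 16.7% of 11500 genes do not overlap. Others were G6pc in triple null (91.9 RPKM) above the libraries labelled HNF4a null (24.4 RPKM), and Pcx in lox (53.4 RPKM) above the same liver group (20.5 RPKM). Those pairs set hepatocytes against liver, which also differ in material and relative depth, so genotype cannot be told apart there. Pck1 and G6pc, enzymes of the same route, differed most in level, among the hepatocyte groups, in triple null. There G6pc was 3.54% to 16.7% of the Pck1 level, both in RPKM, overlapping 7.49% to 29.4% in FoxA3 null and below 19.9% to 40.5% in Cre alfp and 39.4% to 54.0% in lox.

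Targeting FoxA1 and FoxA2 with FoxA3 present (Cre alfp against lox) called none of the 9 members, beside 2.38% of 11500 genes. For Ppargc1a, at a lox mean of 0.814 RPKM, a fall could not have been called. By limma, none of the 9 members reached even an unadjusted p under 0.05: the smallest was 0.0974, for Slc2a2, where 18.3% of 11500 genes did. G6pc had the most negative value, -0.81 ± 0.51 (limma adjusted p = 0.459), with 3 of 4 Cre alfp libraries below all lox libraries and replicate 2 above them, and an interval of 2 SE from -1.84 to 0.22. Fbp1 was 0.07 ± 0.18 (limma adjusted p = 0.892), with an interval of -0.28 to 0.42, far from its value in triple null.

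The difference between those 2 deletions was tested as an interaction. It called 1 of the 9 members, Fbp1, at -2.11 ± 0.24 on the log2 scale (limma adjusted p = 5.6e-05), beside 6.82% of 11500 genes. G6pc fell in one deletion and was not called in the other, but its own interaction of -0.69 ± 0.70 did not pass (limma adjusted p = 0.545), and neither did that of Gys2, -0.99 ± 0.44 (limma adjusted p = 0.143). The deletions also differ in the RNA that remained: in triple null, Foxa1 was at 265% and Foxa2 at 33.5% of Cre alfp. They differ in the source of Cre too, and the time at which it acted in Cre alfp is not given. FoxA3 status and the way and extent of deletion therefore cannot be told apart in this test.

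**Figure D2:**
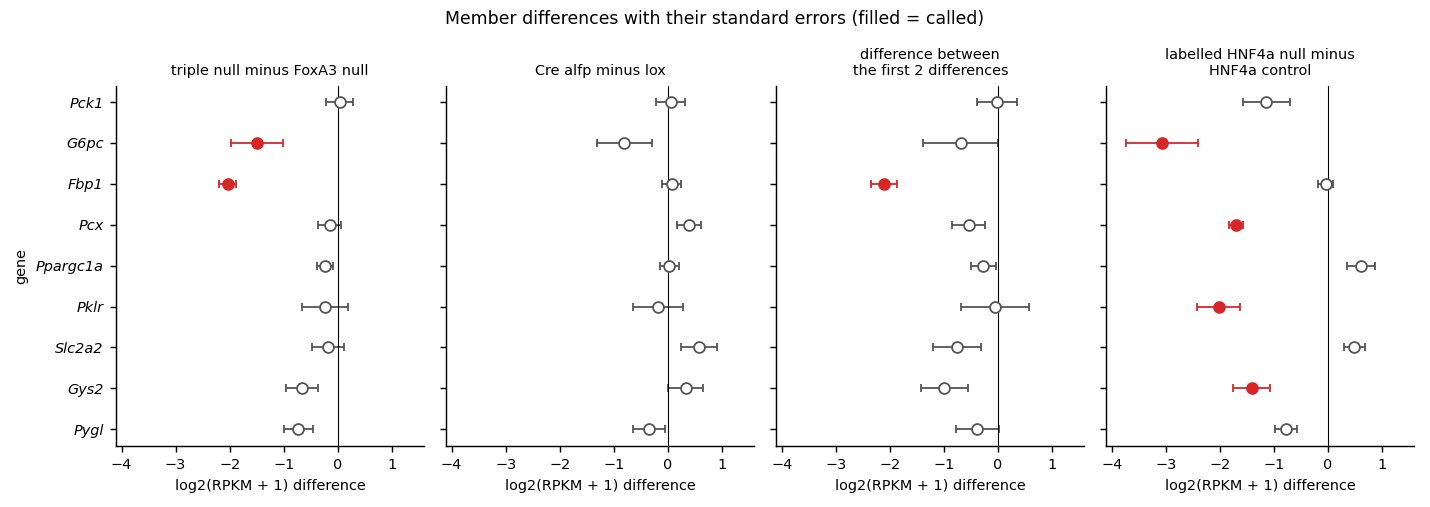
Difference between groups on the log2(RPKM + 1) scale (horizontal axes) with its standard error for the 9 members (rows) in 4 tests; filled red points were called and open points were not. Fbp1 lies near -2 in those for triple null and the interaction and near 0 in the others, whereas Pcx, Pklr and Gys2 were, of these 4 tests, called only in liver.

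Set against the hepatocytes with no deletion, triple null had 2 of 9 members called, both lower, beside 13.5% of 11500 genes called and 5.81% called lower: G6pc at -2.18 ± 0.51 (limma adjusted p = 0.0039) and Fbp1 at -1.22 ± 0.18 (limma adjusted p = 9.61e-05). All 4 triple null libraries were below all lox libraries for both and for Gys2, beside 16.7% of genes. Pck1 (0.75) and Pcx (0.74) were higher without overlap, beside 29.6% of genes, but under the fold threshold. The median of all genes lay 0.13 higher in this comparison; relative to it G6pc was -2.32 and Fbp1 -1.35. Under median scaling the share of lower among called genes went from 42.9% to 54.9%. Leaving out lox replicate 3 added Pklr, at 1.33 (limma adjusted p = 0.00118). In the authors' deposited table of triple null against undeleted controls, with its sign turned, Pck1 is at 0.47 (adjusted p = 0.0415) and Pcx at 0.57 (0.0086), G6pc at -2.22 (0.000264) and Fbp1 at -1.12 (5.74e-05), while Gys2 at -0.29 does not pass (0.259).

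Against Cre alfp, which is deleted for FoxA1 and FoxA2 but has FoxA3, triple null had 3 of 9 members called, all lower, beside 10.3% of 11500 genes called and 5.03% called lower. Fbp1 differed by -1.29 ± 0.16 (limma adjusted p = 3.72e-05), G6pc by -1.38 ± 0.48 (limma adjusted p = 0.0321) and Gys2 by -1.05 ± 0.30 (limma adjusted p = 0.0116). The G6pc call was lost without any 1 of Cre alfp replicates 2, 3 and 4 or triple null replicates 1, 2 and 3 (limma adjusted p up to 0.103), and the Gys2 value moved to -0.69 without Cre alfp replicate 4, the library at 529 RPKM. The median of all genes lay 0.13 higher here too, and median scaling moved the share of lower calls from 48.9% to 60.4%. In the authors' deposited table for this comparison, adjusted p was 3.23e-10 for Fbp1 (-1.20) and 0.0251 for G6pc (-1.56), but 0.0872 for Gys2 (-0.90), which did not pass there, and 0.0499 for Pklr, which is higher (0.55).

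FoxA3 null against lox called none of the 9, beside 7.19% of 11500 genes; at an unadjusted p under 0.05, limma put Pck1, Fbp1, Pcx, Slc2a2 and Pygl higher, 5 of 9 members beside 46.3% of genes past that p in either direction. Fbp1 was 0.82 ± 0.18, Pcx 0.90 ± 0.22 and Pygl 0.93 ± 0.29, with limma adjusted p of 0.00413, 0.00889 and 0.0249, all under the fold threshold. Every FoxA3 null library was above every lox library for these 3 genes and for Pck1, which makes 4 of 9 members without overlap on the higher side, beside 25.7% of 11500 genes. Without lox replicate 3, Fbp1 (1.02), Pklr (1.57), Slc2a2 (1.11) and Pygl (1.01) were called, and without FoxA3 null replicate 3, Pcx (1.03) and Pygl (1.15). The count of all genes called rose as well, from 827 to 1084 and to 1155 under these omissions. The median of all genes lay 0.10 higher, and median scaling moved the share of lower calls from 49.5% to 63.7%. FoxA3 genotype, virus and any difference in preparation between these sets cannot be told apart. Triple null, lox, Cre alfp and FoxA3 null serve in several of these comparisons, so their values are not independent of each other.

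In liver, the libraries labelled HNF4a null had 4 of the 9 members called against their controls, all lower, beside 14.5% of 12434 genes called and 5.95% called lower. G6pc differed by -3.07 ± 0.66 (limma adjusted p = 0.00844), Pklr by -2.02 ± 0.40 (limma adjusted p = 0.00599), Pcx by -1.71 ± 0.13 (limma adjusted p = 0.000157) and Gys2 by -1.41 ± 0.34 (limma adjusted p = 0.0137). The median of all genes lay 0.34 higher in these libraries; relative to it the values were -3.40, -2.36, -2.04 and -1.74. Median scaling turned the split of called genes from 41.0% to 65.8% lower, and under it Pck1 (-1.41) and Pygl (-1.05) were called as well, beside 7.91% of genes called lower. With the deposited scaling Pygl was -0.78 ± 0.20 (limma adjusted p = 0.0178, under the fold threshold) and Pck1 -1.14 ± 0.43 (limma adjusted p = 0.0629). Without the control library at 243 RPKM of G6pc, that gene was at -2.59 with a limma adjusted p of 0.0628, and Gys2 lost its call without either control (limma adjusted p = 0.0723 and 0.0624). All 4 libraries labelled HNF4a null were below both controls for 6 of the 9 members, and above both for Ppargc1a and Slc2a2; 14.4% of 12434 genes were lower without overlap and 52.6% higher. The authors' deposited table puts 7 of the 9 lower at an adjusted p under 0.05, including Fbp1 at -0.46, beside 24.9% of its 12244 genes.

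The authors' deposited tables also set the hepatocytes against earlier stages, whose libraries were not analysed here. In hepatoblasts, the fetal liver precursors, all 9 members are lower than in adult hepatocytes, from -0.98 for Ppargc1a to -7.68 for G6pc on the log2 scale, each at an adjusted p under 0.05, as are 37.9% of the 13473 genes listed. Triple null hepatocytes are above hepatoblasts for all 9 at the same threshold in the authors' deposited table, beside 37.6% of 13624 genes, with G6pc at 5.46, Fbp1 at 3.40 and Pck1 at 6.10. Newborn hepatocytes are above adult ones at an adjusted p under 0.05 for 5 of 9 members in the authors' deposited table, beside 31.6% of 12176 genes: Pcx at 2.55, Ppargc1a at 2.03, Fbp1 at 1.87, Slc2a2 at 1.23 and Gys2 at 0.76.

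**Figure D3:**
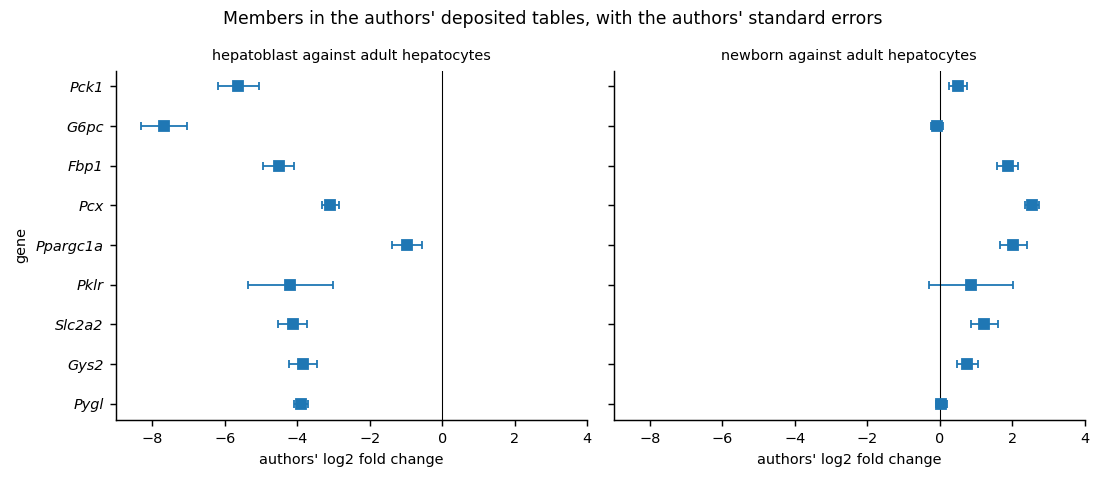
The authors' deposited log2 fold changes with their standard errors (horizontal axes) for the 9 members (rows), hepatoblast against adult hepatocytes on the left and newborn against adult on the right. All 9 lie below 0 on the left, down to -7.68 for G6pc, and Pcx lies highest on the right at 2.55.

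The other genes of glucose handling were counted in 6 lists of 119 genes, all present in the matrix. For triple null against FoxA3 null, 15 of the 110 that passed the filter were called, 8 higher and 7 lower, beside 8.11% of all genes, and the median of these 110 was -0.01 against 0.05 for all genes. For Cre alfp against lox, 2 of 110 were called, beside 2.38% of all genes, and in liver 28 of 114, 12 higher and 16 lower, beside 14.5% of all genes. The lists were chosen with results of these data known, so the counts describe and do not test them.

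For the same pair of groups, the counts by list stand beside the 8.11% of all genes called, and with 8 to 33 genes in a list nothing is read from them. Among other gluconeogenic genes, 1 of 15 tested was called: Brp44, listed now as Mpc2, a subunit of the mitochondrial pyruvate carrier, rose from 332 ± 68.9 to 663 ± 75.2 RPKM (SD, n = 4 each), by 1.01 ± 0.16 on the log2 scale (limma adjusted p = 0.000244). It was at 0.98 under median scaling, below the fold threshold. Among glycolytic genes 3 rose and 1 fell of 26: Pfkfb1, the liver enzyme that makes and breaks fructose 2,6-bisphosphate, rose by 1.22 ± 0.22 (limma adjusted p = 0.000825). FoxA3 null was itself below lox for Pfkfb1, at -1.67 (limma adjusted p = 0.000297). The triple null mean of 14.6 RPKM lay under the lox mean of 20.3 RPKM, without a call. Gapdh was lower by 1.87, from 15.9 to 3.44 RPKM. This value may be uncertain, as the gene has many near-identical pseudogene copies, whose part was not tested. Of 17 other glycogen genes 4 fell and none rose, where 3.95% of all genes fell: Ppp1r3c, which brings protein phosphatase 1 to glycogen, by 2.68 (20.7 ± 7.26 to 2.29 ± 0.496 RPKM, SD, n = 4 each, limma adjusted p = 0.000108), and Stbd1, a glycogen-binding protein, by 2.40 (62.7 ± 30.4 to 10.1 ± 2.64 RPKM, limma adjusted p = 0.000142), were the lowest. Stbd1 was called higher in FoxA3 null than in lox, at 1.37 (limma adjusted p = 0.0135). It was also called lower in triple null than in lox, at -1.03 (limma adjusted p = 0.0387).

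In the remaining lists, 1 of 11 genes of sugar transport and of fructose and galactose use was called, higher. G6pdx, the entry enzyme of the pentose phosphate pathway, rose from 2.23 to 14.7 RPKM, by 2.28 ± 0.20 (limma adjusted p = 1.07e-06), and was the only 1 of 8 called there. Of 33 hormone and fasting regulators 2 rose and 2 fell. Trib3, a pseudokinase that binds Akt, rose by 1.13 ± 0.28 (limma adjusted p = 0.007). Txnip, which glucose raises and which curbs glucose uptake, fell from 185 ± 72.7 to 57.0 ± 27.1 RPKM (SD, n = 4 each), by 1.71 (limma adjusted p = 0.00826). Brp44 lost its call in 5 of 18 alternatives, among them leaving out FoxA3 null replicate 1 (0.88) or triple null replicate 4 (0.95). Leaving out triple null replicate 3 took Trib3 to 0.95, under the fold threshold. A pseudocount of 5 in place of 1 also took Trib3 (0.88) and Pfkfb1 (0.87) under it.

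With FoxA3 present, Cre alfp against lox called Ppp1r3b, another glycogen-targeting subunit, at -2.13 ± 0.40 (limma adjusted p = 0.00653), and Trib3 at 1.80 ± 0.30 (limma adjusted p = 0.00282). Ppp1r3b was lower in triple null against FoxA3 null as well, at -1.21 ± 0.37 (limma adjusted p = 0.0241), and its interaction of 0.92 ± 0.55 did not pass (limma adjusted p = 0.282). In a fit of Cre alfp and lox alone Ppp1r3b had a limma adjusted p of 0.0582. With the replicate block Ppp1r3b (-1.99, limma adjusted p = 0.192) and Trib3 (1.79, limma adjusted p = 0.169) lost their calls at about the same difference. The other 4 lists had no call among 15, 26, 11 and 8 tested genes.

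The counts by list in liver stand beside 14.5% of 12434 genes called and 5.95% called lower, and for several lists they lie near those shares. In the libraries labelled HNF4a null, 3 of 15 other gluconeogenic genes were lower and 1 higher: glycerol kinase (Gyk) at -2.03 and Gpd1, which turns glycerol phosphate into dihydroxyacetone phosphate, at -1.55, against Pck2, the mitochondrial carboxykinase, at 1.25 (0.98 under median scaling, below the fold threshold). Of 31 glycolytic genes 4 were higher and 4 lower, the highest being Pdk4, the kinase that shuts pyruvate dehydrogenase, at 2.39 (1.89 to 14.6 RPKM). Gapdh was at 1.40, with the same doubt as in hepatocytes, and Aldoc at -1.61. Of 17 glycogen genes 4 were higher and 1 lower, with Pygb, the brain form of glycogen phosphorylase, at 2.22 and Gyg, the glycogen primer, at 1.76. Fructose and galactose genes gave 4 lower of 11, with Dak at -3.45 (54.3 to 4.04 RPKM) and Khk at -2.05 (367 to 88.1 RPKM). Tkt, a pentose phosphate enzyme, was higher by 1.61 as the only call of 8, and regulators gave 2 higher and 4 lower of 32, among them Txnip at 3.19, Ppara at -2.18 and Cebpa at -1.43. Each of these named genes had a limma adjusted p of at most 0.00385. With a pseudocount of 5, Pck2 (0.65), Gapdh (0.84) and Gyg (0.86) were under the fold threshold. Pck2 was also under it without the control library at 243 RPKM of G6pc (0.86) and under quantile normalization (0.95).

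**Figure D4:**
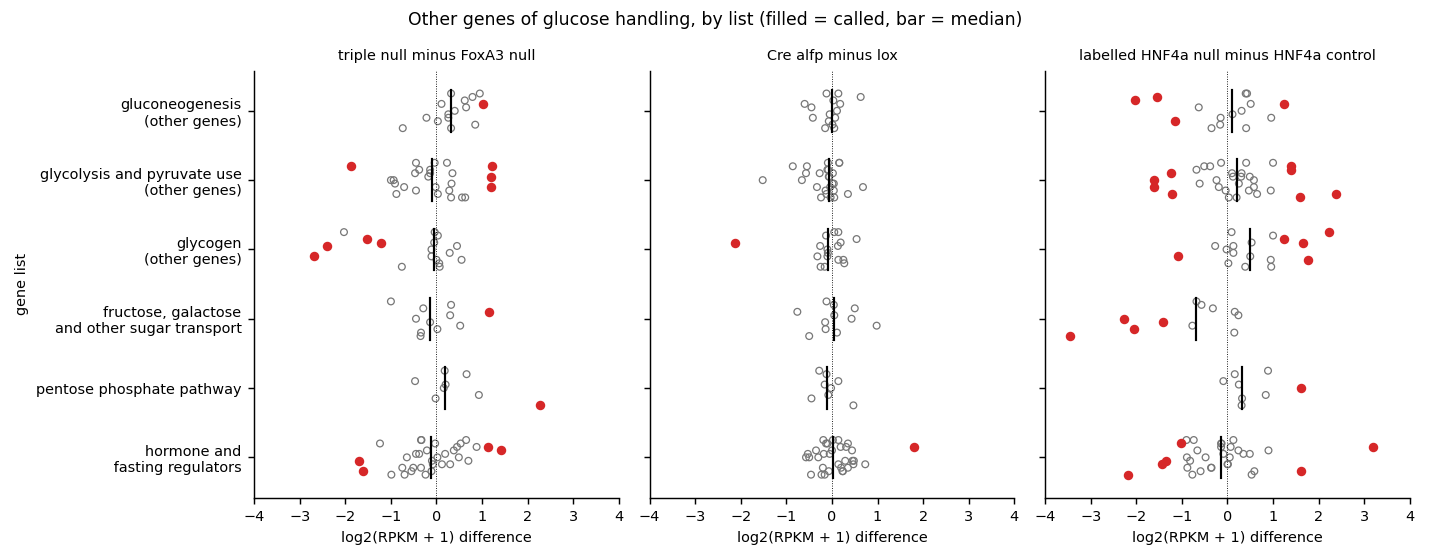
Differences on the log2(RPKM + 1) scale (horizontal axes) for every tested gene of the 6 lists (rows) in 3 comparisons; filled red points were called, open points were not, black bars are list medians and vertical scatter only separates points. The called glycogen genes all lie below 0 in the left panel, down to -2.68, and 4 of 5 lie above 0 in the right panel.

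Markers of other cells moved with some of these results. Between triple null and FoxA3 null, summed hepatocyte markers (8 genes) were 19891 to 25593 RPKM against 29173 to 41094 RPKM, with 3 of 8 called lower (Alb, Cps1, Apoh) and 2 higher, Hpd among them. Sinusoidal endothelium markers summed to 10.4 to 22.1 against 36.1 to 57.4 RPKM, with 3 of 9 tested called lower, and 2 of 4 stellate markers were lower, with sums of 6.82 to 24.2 against 25.6 to 35.4 RPKM. Neutrophil and monocyte markers summed to 9.74 to 110 RPKM against 0.834 to 2.06 RPKM, with S100a8 and S100a9 called higher and Mpo at 0 in all FoxA3 null libraries. Kupffer (8 tested) and cholangiocyte (3 tested) markers had no call, no lymphocyte marker passed the filter, and of 4 erythroid markers 2 were higher and 1 lower. Endothelium markers were also called lower for triple null against lox (6 of 9) and against Cre alfp (7 of 9), and both tested neutrophil and monocyte markers were called higher in each. The part of these shifts in the differences of Fbp1, G6pc and Gys2 was not tested.

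For Cre alfp against lox, 1 cholangiocyte marker (Spp1) was lower and erythroid markers had 1 call each way. In liver, 6 of 7 tested cholangiocyte markers were higher in the libraries labelled HNF4a null, whose sums were 138 to 236 RPKM against 17.9 to 18.7 RPKM. Hepatocyte markers summed to 11569 to 13443 RPKM there against 22541 to 22843 RPKM in the controls, with 3 called lower and 1 higher. Marco and 2 neutrophil markers were higher and 1 erythroid marker lower, and the part of any of them in the 4 lower members was not tested.

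The genes whose pattern was most like each member were found by Pearson's r over the 21 libraries, among 7097 genes, after the mean of each set (FoxA3 null with triple null, lox with Cre alfp, liver) was subtracted. The libraries of a set share the group differences, and whether they were prepared together is not given, so r is a description. Fbp1 was closest to Apoa5 (r = 0.980) and Apof (0.966), both apolipoprotein genes. G6pc was closest to Slc25a25 (0.929) and Apon (0.857), and Pck1 to Pim3 (0.795) and Slc46a1 (0.786). Pcx was closest to Ugt3a1 (0.965) and Gcdh (0.964), Pklr to Pltp (0.908), and Slc2a2 to Rgs16 (0.899) and Tef (0.840). Gys2 had Slc10a1 and Pcsk4 (both 0.827), and Pygl had Amt (0.912) and Gfm1 (0.900). Ppargc1a lay below the mean level of 5 RPKM asked for.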

How the data were processed

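RNA sequencing of 15 hepatocyte and 6 liver libraries was read from the matrix of RPKM values that the authors deposited, of which 21 columns were used and 9 columns were not. Per the submitters' processing notes, SAMtools, Cufflinks 2.2.1 and DESeq2 were used with the mouse build mm9, without their roles; the aligner and annotation are not given in the sources used here. Some values are tiny estimates rather than counts: 2.90% of those above 0 are under 1e-06, so no count model was fitted. Fold changes and p-values of the authors' deposited tables, on the log2 scale, are quoted as theirs, with Benjamini-Hochberg adjustment computed here where a table held raw p-values only (triple null against Cre alfp). In 4 of these tables the header names start one column to the left of the values; columns were assigned by content, since the value taken as log2 fold change divided by its standard error gave the next column's statistic, within 0.1% of it plus 1e-04, for 100% of the genes. Binding and chromatin data were not analysed here.

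Values were taken as log2(RPKM + 1) and fitted with limma 3.58.1 (lmFit, eBayes with trend) in R 4.3.3, with all 15 hepatocyte libraries in one fit and the 6 liver libraries in another, no covariates, and a filter of at least 1 RPKM in at least 3 (hepatocytes) or 2 (liver) libraries. P-values were adjusted over all tested genes, and the scripts were tested on simulated data. The 9 members were named whatever their test; of each of the 6 lists (other gluconeogenic genes, glycolysis and pyruvate use, glycogen, fructose with galactose and sugar transport, pentose phosphate, hormone and fasting regulators), the 2 highest and 2 lowest called genes with a mean of at least 5 RPKM in the higher group were named, and markers of 8 cell types were summed. Some genes that this rule names, or that the marker lists and the likeness search hold, are not reported here. Members and lists were chosen with earlier results of these data known. Alternatives changed the pseudocount, filter, scaling, variance trend, libraries in the fit, threshold and replicate block, and left out each library in turn. The columns of the HNF4a libraries name their group but not their replicate number.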

Additional observations from a re-analysis of the deposited data

Results flagged for a closer look

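Among 120 sets of 4 libraries (the members and named pathway genes in each group of 4), 6 held a library that stood apart from the other 3 by Dixon's criterion, where chance flags about 1 in 20 groups. FoxA3 null replicate 3 had the lowest Pklr (45.8 RPKM), the lowest G6pdx (1.29 RPKM) and the lowest Gpd1 (118 RPKM) of its group. Cre alfp replicate 4 had the highest Stbd1 of its group, at 29.9 RPKM. Triple null replicate 1 had the highest Pygb, at 0.530 RPKM, and triple null replicate 3 the highest Cebpa, at 361 RPKM.

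The interaction was examined for 30 members and named pathway genes, of which Pygb did not pass the hepatocyte filter and was not tested. The effect of targeting FoxA1 and FoxA2 differed between hepatocytes without and with FoxA3 for 6 of them. The test was limma's, of the interaction on the log2 scale, and stands beside 6.82% of all genes. Apart from Fbp1, the other 5 had been named for their change in triple null against FoxA3 null, which is one side of this interaction, so the count is no independent support. Fbp1 (-2.11), Ppp1r3c (-2.35), Stbd1 (-2.14) and Txnip (-2.16) had the more negative effect where FoxA3 was absent. Pfkfb1 (2.07) and G6pdx (1.80) had the more positive effect there. FoxA3 null was itself called against lox for Pfkfb1 (-1.67), Stbd1 (1.37) and G6pdx (1.04). The highest limma adjusted p among the 6 was 0.0347, for Txnip. The interaction carries the differences in Cre source and in remaining Foxa1 and Foxa2 RNA between the deletions.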

How the results depend on the processing

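For triple null against FoxA3 null the count of 2 called members became 1, by the loss of G6pc, in 8 of 18 alternatives: 1 with no filter on low values, 1 with the replicate block, and 1 to 2 when each library was left out. Against Cre alfp G6pc was lost with no filter (limma adjusted p = 0.0836) and in 6 of 8 such omissions. With the adjusted p alone it was 4 of 9 for triple null against lox and 3 of 9 for FoxA3 null against lox, beside 42.5% and 34.8% of all genes. Leaving out each library gave 2 to 3 for triple null against lox, 1 to 3 against Cre alfp, 0 to 4 for FoxA3 null against lox and 2 to 5 in liver. In that order, all genes called ranged from 1355 to 1704, 1049 to 1308, 605 to 1155 and 1590 to 1834. For triple null against FoxA3 null they ranged from 866 to 1034. For Gys2 in liver the adjusted p was 0.0564 with no filter, and Pck1 there was called with all 21 libraries in one fit (0.0192) and without the library at 752 RPKM (0.0206).

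The replicate numbers do not pair the samples: same-numbered libraries deviated together with correlations from -0.36 to 0.17. The block changed the call of Ppp1r3b (-1.99, limma adjusted p = 0.192) and Trib3 (1.79, limma adjusted p = 0.169) in Cre alfp against lox. It changed the call of no member other than G6pc (limma adjusted p = 0.0644). It moved the genes called from 274 to 122 for Cre alfp against lox and from 827 to 142 for FoxA3 null against lox, and turned the sign of Pck1 (-0.13) and Gys2 (-0.03) in Cre alfp against lox and of Pck1 (0.17) and Pklr (0.12) in the interaction.

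Other sign turns were of values that were not called. Quantile normalization gave Ppargc1a -0.03 in Cre alfp against lox, Pck1 0.04 in the interaction and Fbp1 0.02 in liver; median scaling gave Ppargc1a -0.06 and -0.07 in triple null against lox and Cre alfp. Leaving out 1 library, ranges were -0.04 to 0.17 (Pck1) and -0.35 to 0.02 (Pcx) for triple null against FoxA3 null. For Cre alfp against lox they were -0.13 to 0.29 (Pck1), -0.09 to 0.27 (Fbp1), -0.03 to 0.08 (Ppargc1a), -0.65 to 0.65 (Pklr) and -0.03 to 0.53 (Gys2), and for the interaction -0.25 to 0.17 (Pck1) and -0.88 to 0.41 (Pklr). They were -0.01 to 0.16 (Ppargc1a) and -0.06 to 0.39 (Pygl) for triple null against lox, -0.04 to 0.14 (Ppargc1a) and -0.23 to 0.17 (Slc2a2) against Cre alfp, -0.16 to 0.10 (Gys2) for FoxA3 null against lox and -0.16 to 0.08 (Fbp1) in liver.

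Over all genes, a pseudocount of 5 lowered the counts called from 933 to 505, 274 to 141, 784 to 441, 1556 to 823, 1184 to 598, 827 to 354 and 1807 to 791, in the order triple null against FoxA3 null, Cre alfp against lox, interaction, triple null against lox, against Cre alfp, FoxA3 null against lox and liver. The adjusted p alone gave 3413, 628, 1658, 4891, 4743, 4001 and 6569 in that order. A pseudocount of 0.1 gave 1303 for FoxA3 null against lox; fitting only the groups compared gave 182 for Cre alfp against lox, and leaving out lox replicate 1 gave 177. The causes were not tested. Absolute depth is unknown, so values near 1 RPKM, as for Ppargc1a, carry counting error that could not be given an interval.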
